A study of Mus musculus with 8 samples.

Results

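Troponin is the calcium switch of striated muscle, and its 8 genes were followed here in the soleus, a calf muscle rich in slow fibres, in control mice and in mice with a point mutation in dynamin 2, a large GTPase that cuts membrane vesicles free. The 8 genes, Tnnc1, Tnnc2, Tnni1, Tnni2, Tnni3, Tnnt1, Tnnt2 and Tnnt3, were taken by symbol, with no threshold on their values, out of 22880 genes in the count files. All 8 passed the filter on low counts, which left 14001 genes to test.

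RNA was sequenced from the soleus of 4 control (Dnm2 +/+) and 4 heterozygous Dnm2 +/K562E male mice of the C57BL/6 background, each 2 months old and each a separate animal, so that p-values measured the spread between mice. The mutation was knocked into the endogenous Dnm2 locus and was therefore carried by every cell type, and a LoxP site remained in a nearby intron of that allele only. Controls were age-matched or littermate animals. Whole frozen muscle was ground, so the RNA came from fibres of every type together with nerve, vessel and connective tissue cells. In such bulk samples, fewer cells of a type and less RNA per cell cannot be told apart.

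A troponin complex holds 1 subunit of each of 3 kinds. Troponin C binds calcium, troponin I blocks the binding of myosin to actin until calcium arrives, and troponin T anchors the complex to tropomyosin on the thin filament. Each subunit comes in forms proper to slow fibres (Tnnc1, Tnni1, Tnnt1), fast fibres (Tnnc2, Tnni2, Tnnt3) and heart (Tnni3, Tnnt2), and heart shares the slow form of troponin C. The cardiac form of troponin T is also made in embryonic and regenerating skeletal muscle.

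The promoters of the only troponin gene that rose, Tnnt2, and of the slow gene Tnnc1 are shown because both are used in heart and in skeletal muscle and moved in opposite directions. Each stretch is the 250 bases before the RefSeq start of the gene on GRCm38.p6, chr1:135836084-135836333 for Tnnt2 and chr14:31208062-31208311 for Tnnc1, both on the plus strand, and neither holds an annotated exon base. The table gives Tnnt2 a second start, whose stretch (chr1:135836739-135836988) held no MCAT element and 1 E-box and is not shown. Capitals mark the MCAT element (CATTCC on either strand), bound by TEAD factors, and E-boxes (CANNTG), bound by MyoD-family factors.
Tnnt2: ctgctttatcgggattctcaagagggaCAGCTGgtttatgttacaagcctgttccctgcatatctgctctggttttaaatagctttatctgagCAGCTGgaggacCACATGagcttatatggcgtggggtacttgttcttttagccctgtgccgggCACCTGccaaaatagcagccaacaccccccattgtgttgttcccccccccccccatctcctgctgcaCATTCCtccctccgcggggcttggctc
Tnnc1: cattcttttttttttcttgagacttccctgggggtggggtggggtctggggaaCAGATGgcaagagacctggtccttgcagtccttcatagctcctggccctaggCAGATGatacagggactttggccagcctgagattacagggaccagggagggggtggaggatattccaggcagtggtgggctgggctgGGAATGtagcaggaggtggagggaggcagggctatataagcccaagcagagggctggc
The Tnnt2 stretch held 1 MCAT element, beginning 27 bases before the start, and 4 E-boxes at 223, 157, 145 and 94 bases. In the Tnnc1 stretch lay 1 MCAT element at 58 bases and 2 E-boxes at 197 and 145 bases. Of the 32536 different promoter stretches of this length in the RefSeq table, 12.6% held an MCAT element and 66.2% an E-box. Of the 8 genes, 6 had an entry in the table, and among those 6 the MCAT element was present in these 2 stretches alone. No stretch of the 6 held a MEF2 site or a CArG box, which 2.89% and 1.48% of all stretches did. A match of letters is a description and does not show binding.

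The 3 fast and 2 of the 3 slow troponin genes fell in Dnm2 +/K562E soleus, the cardiac troponin T gene Tnnt2 rose 5.43-fold, and the slow troponin I gene Tnni1 and the cardiac troponin I gene Tnni3 did not pass the test. Levels are given as normalized CPM, counts per 1000000 of a library after TMM scaling. A gene was said to rise or fall at an adjusted p under 0.05 (edgeR's quasi-likelihood test, Benjamini-Hochberg adjustment over all tested genes), and to be called when its log2 fold change was also at least 0.58 in size. By that rule 4 of 8 troponin genes were called lower, beside 7.85% of all tested genes, and 1 of 8 was called higher, beside 12.9%. Counting the adjusted p alone, 5 of 8 fell and 1 rose, while 21.7% of all tested genes fell and 22.2% rose. In 5 of 8 every mutant mouse lay below every control mouse, as in 20.5% of all tested genes, and in 1 of 8 every mutant mouse lay above, as in 20.6%. The fold changes of the called fast and slow genes lay just past the threshold. TMM factors were 0.915 to 0.959 in controls and 1.04 to 1.10 in mutants. With scaling by library size alone, which moved the median over all tested genes from 0.0074 to 0.22 on the log2 scale, no troponin gene was called lower, although the same 5 still passed the adjusted p of edgeR's quasi-likelihood test.

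**Figure D1:**
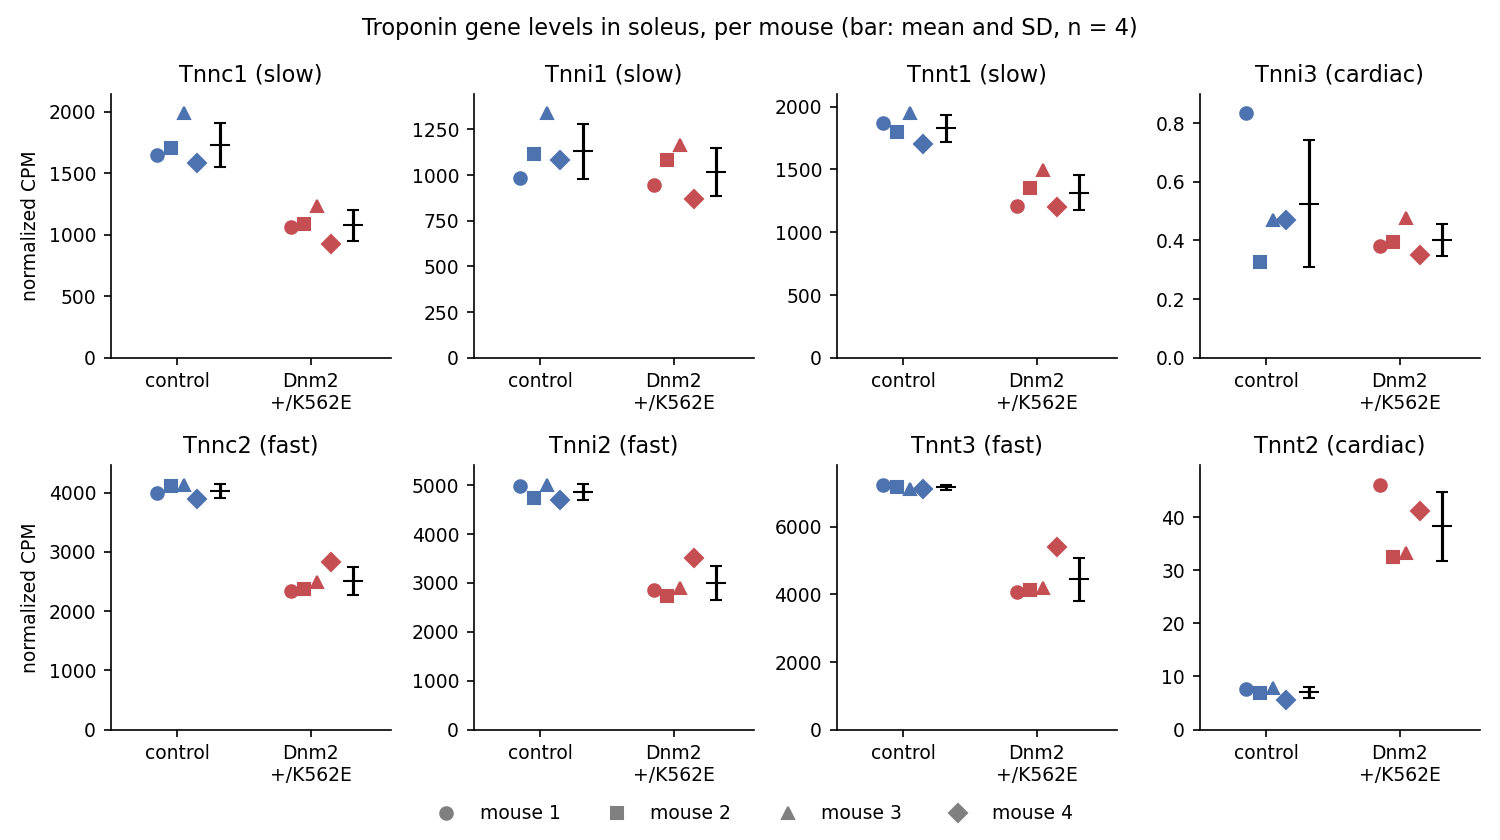
Each panel plots 1 troponin gene, with normalized CPM on a linear axis from 0 and a marker shape for each mouse number within its genotype (the numbers do not pair mice). The black bars are mean and SD of 4 mice, and only Tnni1 and Tnni3 have overlapping genotypes.

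Both forms of troponin C fell, with a log2 fold change of -0.69 each. Tnnc2, the fast form (chromosome 2, 164777161 to 164779967, minus strand of GRCm38), stood at 3987, 4116, 4131 and 3886 normalized CPM in control mice 1 to 4 and at 2333, 2366, 2489 and 2836 in Dnm2 +/K562E mice 1 to 4. The mutant mice were all far below the controls, and mutant mouse 4 was the highest of them. The mean went from 4030 ± 116 to 2506 ± 230 CPM (SD, n = 4 each), a log2 fold change of -0.69 (SE 0.0759, adjusted p = 4.36e-05, edgeR's quasi-likelihood test). Exons of Tnnc2 share 592 bases with Ube2c, a ubiquitin-conjugating enzyme gene on the opposite strand, and reads there cannot be told apart without strand. Reads overlapping several genes were counted for each, yet Ube2c received only 33 to 71 counts a mouse. Reads of Tnnc2 were thus hardly counted for Ube2c.

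Tnnc1, the form of slow fibres and heart (chromosome 14, 31208312 to 31211729, plus strand), measured 1652, 1704, 1989 and 1580 CPM in the controls and 1062, 1084, 1235 and 924 in the mutants. The genotypes did not overlap, and mouse 3 was highest in each while mutant mouse 4, the highest for the fast form, was lowest. Its mean of 1731 ± 179 CPM fell to 1076 ± 127 (SD, n = 4 each), a log2 fold change of -0.69 (SE 0.0991, adjusted p = 0.000262, edgeR's quasi-likelihood test).

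Of the troponin I genes the fast form fell, and the slow and cardiac forms did not pass the test; the ratios between the forms, given further on, did not pass either. Tnni2, the fast inhibitory subunit (chromosome 7, 142441808 to 142444410, plus strand), measured 4991, 4737, 5009 and 4690 CPM in controls and 2857, 2737, 2890 and 3503 in mutants. All mutants lay below all controls, again with mutant mouse 4 nearest to them. From 4857 ± 166 CPM it fell to 2997 ± 344 (SD, n = 4 each), a log2 fold change of -0.70 (SE 0.085, adjusted p = 8.79e-05, edgeR's quasi-likelihood test).

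Tnni1, the slow inhibitory subunit, which developing muscle also uses (chromosome 1, 135779434 to 135810989, plus strand), stood at 985, 1114, 1339 and 1082 CPM in controls and at 948, 1083, 1162 and 868.3 in mutants. The ranges overlapped over most of their width. The means were 1130 ± 150 and 1015 ± 132 CPM (SD, n = 4 each), with a log2 fold change of -0.15 (SE 0.112) that did not pass (adjusted p = 0.287, edgeR's quasi-likelihood test). Tnni1 was thus the only abundant troponin gene without a detected change.

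Tnni3, the cardiac inhibitory subunit (chromosome 7, 4518305 to 4524229, minus strand), was barely detected, with 28, 11, 21 and 16 counts in controls and 14, 17, 20 and 13 in mutants. In normalized units these were 0.525 ± 0.217 and 0.401 ± 0.0539 CPM (SD, n = 4 each), with a log2 fold change of -0.38 (SE 0.356, adjusted p = 0.414, edgeR's quasi-likelihood test). Exons of Tnni3 share 86 bases with Dnaaf3, a gene for assembly of ciliary dyneins on the same strand, whose 4 to 26 counts a mouse were as few. Reads in those bases could have come from either gene, so the Tnni3 counts are uncertain.

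In troponin T the fast and slow forms fell and the cardiac form rose. Tnnt3, the fast form (chromosome 7, 142498836 to 142516009, plus strand), measured 7246, 7180, 7113 and 7125 CPM in controls and 4064, 4140, 4198 and 5406 in mutants. The controls lay within a narrow band, 3 mutants lay close together far below it, and mutant mouse 4 stood between. The mean fell from 7166 ± 60.9 to 4452 ± 638 CPM (SD, n = 4 each), a log2 fold change of -0.69 (SE 0.0951, adjusted p = 0.000199, edgeR's quasi-likelihood test).

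Tnnt1, the slow form (chromosome 7, 4504570 to 4516382, minus strand), measured 1870, 1796, 1949 and 1700 CPM in controls and 1209, 1353, 1493 and 1199 in mutants. Every mutant lay below every control, though the gap was smaller than for Tnnt3. The mean fell from 1829 ± 106 to 1314 ± 139 CPM (SD, n = 4 each), a log2 fold change of -0.48 (SE 0.0832, adjusted p = 0.000915, edgeR's quasi-likelihood test), short of the fold threshold for a call.

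Tnnt2, the cardiac form (chromosome 1, 135836354 to 135852260, plus strand), received 256, 233, 353 and 192 counts in controls and 1698, 1400, 1395 and 1525 in mutants. As normalized CPM these were 7.63, 6.92, 7.90 and 5.65 in controls against 46.1, 32.5, 33.3 and 41.2 in mutants. All mutants were several times above all controls, and mutant mice 1 and 4 were the highest. The mean rose from 7.02 ± 1.01 to 38.3 ± 6.53 CPM (SD, n = 4 each), a log2 fold change of 2.44 (SE 0.141, adjusted p = 8.21e-07, edgeR's quasi-likelihood test). Over all 16 alternatives its log2 fold change lay between 2.34 and 2.66.

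Exact two-sided permutation tests of the single genes gave p = 0.0286, the smallest that 4 against 4 mice allow, for each of the 6 genes without overlap, 0.343 for Tnni1 and 0.371 for Tnni3. A share of all counts uses no TMM factor and amounts to scaling by library size alone, under which no single troponin gene was called lower. By that share the 8 genes together took 1.91, 1.90, 1.97 and 1.93% in controls and 1.38, 1.41, 1.44 and 1.53% in mutants. The highest mutant was well below the lowest control, and the mean went from 1.93 ± 0.0292% to 1.44 ± 0.0655% (SD, n = 4 each, exact permutation p = 0.0286).

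Levels of different genes were compared per kilobase of exon, as normalized CPM per kilobase. In controls the order was Tnnc2 (5038 ± 145), Tnnt3 (4527 ± 38.5), Tnni2 (3244 ± 111), Tnnc1 (1663 ± 172), Tnnt1 (830 ± 48.3), Tnni1 (314 ± 41.6), Tnnt2 (0.906 ± 0.13) and Tnni3 (0.255 ± 0.105), each as SD with n = 4. The 3 fast genes thus led, and ranked 9, 10 and 13 among 13950 genes by mean level over all 8 mice. For the myosin heavy chains, controls had 1366 ± 85.55 of the fast Myh2, 740 ± 78.0 of the fast Myh1 and 698 ± 30.5 of the slow Myh7. No neighbours in the order overlapped in the controls. By exon length the mutants kept this order, with Tnnc2 at 3133 ± 288, Tnnt3 at 2813 ± 403, Tnni2 at 2002 ± 230, Tnnc1 at 1034 ± 122, Tnnt1 at 596 ± 62.9, Tnni1 at 282 ± 36.7, Tnnt2 at 4.94 ± 0.842 and Tnni3 at 0.194 ± 0.0261. There Tnnc2 (2916 to 3546) and Tnnt3 (2568 to 3415) overlapped. Division by coding length gave another order of the fast genes in controls, Tnnt3 (8782), Tnni2 (8521) and Tnnc2 (8396), so their order among themselves depends on the length used. By coding length Tnnt1 (2327) stood above Tnni1 (2014) in controls and below it in mutants (1671 against 1810).

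The rise of Tnnt2 left it a trace of troponin T. Isoform shares were formed within each mouse from counts divided by exon length, and Tnnc1 was counted as slow because slow fibres and heart share it. Tnnt2 made up 0.0181, 0.0167, 0.019 and 0.0138% of troponin T in controls and 0.191, 0.13, 0.129 and 0.134% in mutants. Each mutant was above each control, with mutant mouse 1 apart from the rest. The mean share was 0.0169 ± 0.00225% against 0.146 ± 0.0299% (SD, n = 4 each), with an exact permutation p = 0.0286 that became 0.143 when adjusted over the family of 20 shares and ratios. No member of that family passed after adjustment, and 0.143 was its lowest adjusted p. The size of this share depended on the length used: by coding length it was 0.0697% in controls and 0.593% in mutants, and by raw counts 0.0779% and 0.664%, with the same p of 0.0286 in the exact permutation test.

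Within troponin I the slow share was higher on average in the mutants, short of the test. The slow share, from Tnni1, was 7.59, 8.90, 10.01 and 8.75% in controls and 12.1, 14.1, 14.3 and 9.34% in mutants. Mutant mice 1 to 3 lay above every control, and mutant mouse 4 lay among them. The mean was 8.81 ± 0.99% against 12.5 ± 2.31% (SD, n = 4 each, exact permutation p = 0.0571, adjusted p = 0.163), and the fast share, from Tnni2, 91.2 ± 0.988% against 87.5 ± 2.32%. By coding length the slow share was 19.1% against 25.7%, and by raw counts 18.8% against 25.4%, with the same exact permutation p of 0.0571. Tnni3 made up 0.00714 ± 0.00286% of troponin I in controls and 0.00858 ± 0.00152% in mutants (n = 4 each, exact permutation p = 0.429).

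Within troponin T the slow share, from Tnnt1, was 15.6, 15.2, 16.4 and 14.6% in controls and 17.6, 19.0, 20.3 and 13.7% in mutants. Mutant mice 1 to 3 were again above all controls, while mutant mouse 4 was below them all. The means were 15.5 ± 0.761% and 17.7 ± 2.85% (SD, n = 4 each, exact permutation p = 0.2), beside a fast share of 84.5 ± 0.764% and 82.2 ± 2.84%. The fast share of troponin C, from Tnnc2, was 75.9, 75.9, 73.0 and 76.2% in controls and 74.1, 74.0, 72.4 and 79.97% in mutants. Its means of 75.2 ± 1.5% and 75.1 ± 3.34% (SD, n = 4 each, exact permutation p = 1) were close, but mutant mouse 4 lay above every control and the other 3 mutants lay below 3 of the 4 controls.

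**Figure D2:**
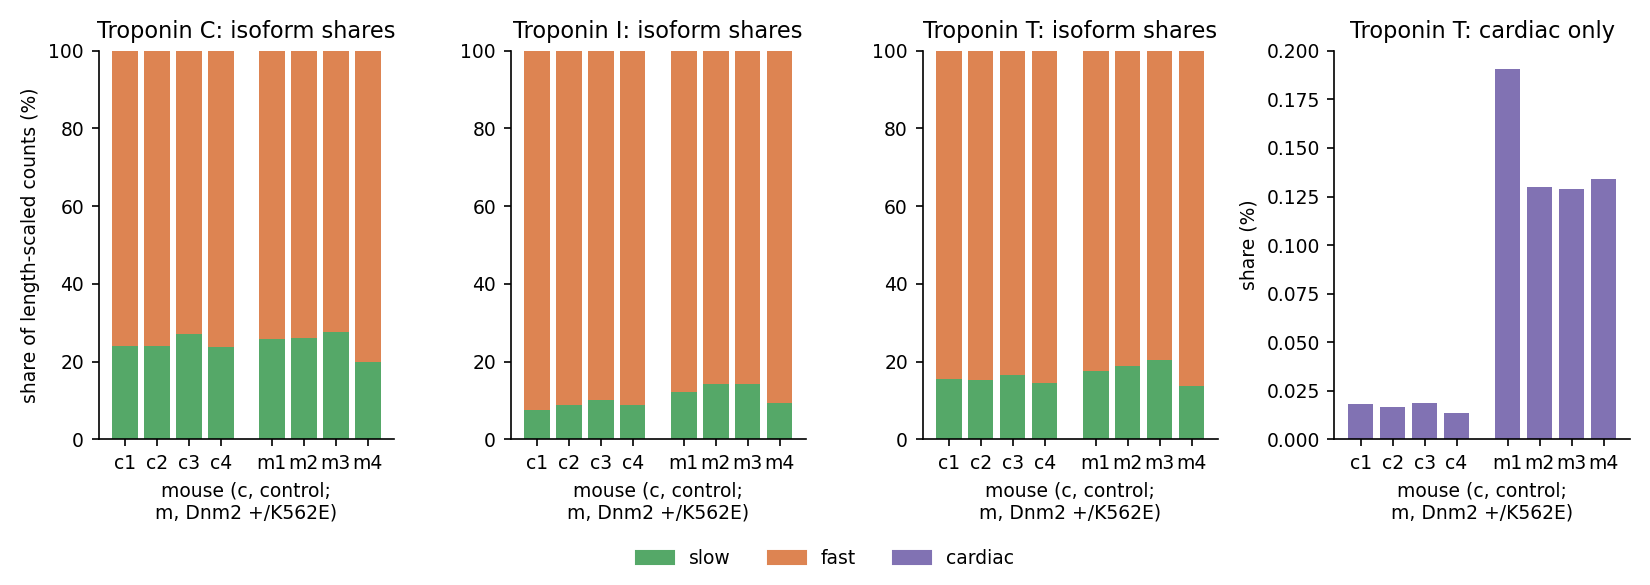
Stacked bars give the slow, fast and cardiac share of each troponin subunit in percent of length-scaled counts, with 1 bar per mouse (c, control mice; m, Dnm2 +/K562E mice). The cardiac share is too small to see in the stacks and is drawn alone for troponin T on its own axis, where the mutant mice lie between 0.129 and 0.191% and the controls between 0.0138 and 0.019%.

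Over all 8 genes the slow forms took 17.9 ± 1.11% in controls and 19.5 ± 3.0% in mutants, the fast forms 82.0 ± 1.11% and 80.4 ± 3.0% (SD, n = 4 each, exact permutation p = 0.314 for both). Single mice moved these differences. That in the fast share, mutant minus control, was -1.62 percentage points, -3.05 without mutant mouse 4 and -0.758 without mutant mouse 3, and that in the slow share was 1.58, 3.0 and 0.711. The cardiac forms took 0.00742 ± 0.00114% and 0.0522 ± 0.00962% (SD, n = 4 each, exact permutation p = 0.0286, adjusted p = 0.143).

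As log2 ratios of the fast to the slow form, the 3 subunits differed in how far the genotypes stood apart. For troponin I the ratio was 3.61, 3.36, 3.17 and 3.38 in controls and 2.86, 2.60, 2.58 and 3.28 in mutants, so that mutant mouse 4 was the 1 mouse to reach into the control range. The mutant mean was lower by 0.55 (exact permutation p = 0.0571, adjusted p = 0.163, n = 4 each). For troponin T the difference, mutant minus control, was -0.22 (exact permutation p = 0.2, n = 4 each) with -0.35 without mutant mouse 4 and -0.13 without mutant mouse 3. For troponin C it was -0.0018 (exact permutation p = 1, n = 4 each) and took either sign as single mice were left out, from -0.13 without mutant mouse 4 to 0.069 without mutant mouse 3. Whether the difference varied between the subunits was not tested.

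**Figure D3:**
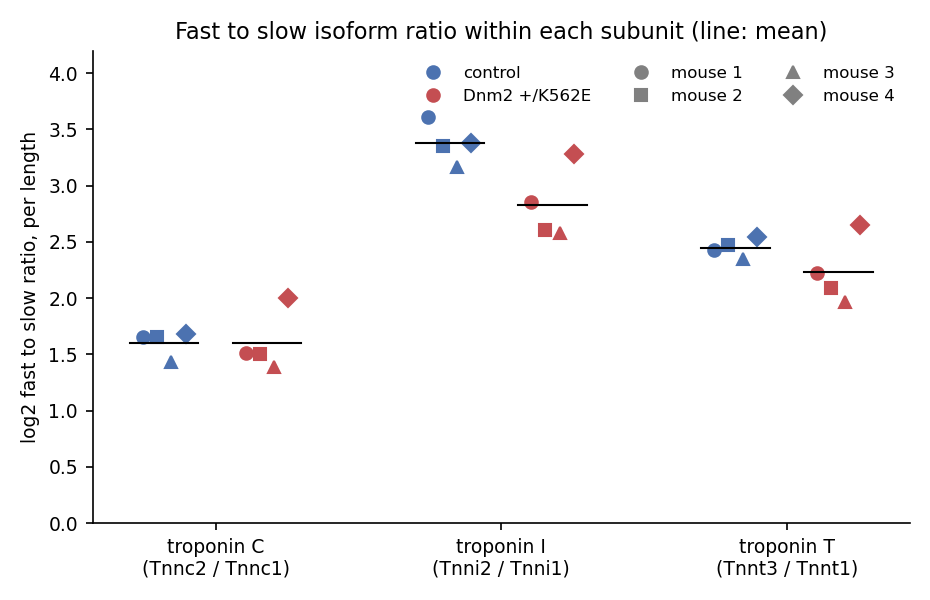
The log2 ratio of the fast to the slow gene, each divided by its exon length, is plotted for troponin C, I and T, with colour for genotype, shape for mouse number and a line at each mean. Mutant mouse 4 has the highest ratio of the mutants in each subunit, and the means lie furthest apart for troponin I (3.38 in controls, 2.83 in mutants).

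Relative to both other forms of troponin T, the cardiac form was higher in every mutant than in any control. The log2 ratio of Tnnt2 to Tnnt1 went from -9.85 ± 0.137 to -6.93 ± 0.38 and that of Tnnt2 to Tnnt3 from -12.3 ± 0.213 to -9.16 ± 0.271 (SD, n = 4 each), both with an exact permutation p = 0.0286 and an adjusted p = 0.143. For Tnni3 the ratio to Tnni1 differed by -0.16 (exact permutation p = 0.8, n = 4 each; 0.15 without control mouse 1) and that to Tnni2 by 0.39 (exact permutation p = 0.314, n = 4 each).

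The 3 subunits, each summed over its forms, stayed in much the same proportion. The log2 ratio of troponin C to troponin I was 0.913 ± 0.0435 in controls and 0.87 ± 0.0672 in mutants (SD, n = 4 each, exact permutation p = 0.371). Troponin C to troponin T differed by -0.030 (exact permutation p = 0.657, n = 4 each) and troponin I to troponin T by 0.013 (exact permutation p = 0.714, n = 4 each). The first of these depended on the length used. With raw counts the genotypes no longer overlapped and differed by -0.11 (exact permutation p = 0.0286, adjusted p = 0.114, n = 4 each), and likewise with coding length. Tnni1, with an exon length of 3600 and a coding length of 561 bases, weighs more in both.

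The genes lie in 3 neighbouring pairs that joined an inhibitory with a tropomyosin-binding subunit, beside Tnnc1 and Tnnc2 on their own. Tnni1 and Tnnt2 lie 25364 bases apart on chromosome 1, with Lad1 between them, and Tnnt2 rose while Tnni1 did not pass the test. Tnni2 and Tnnt3 lie 54425 bases apart on chromosome 7 and fell by 0.70 and 0.69 on the log2 scale. Between them lies Lsp1, a leukocyte actin-binding protein gene, at 45.3 ± 5.70 CPM in controls and 103 ± 15.95 in mutants (SD, n = 4 each). Lsp1 was chosen after its values were seen, so no test of it is given. Tnni3 and Tnnt1 lie 1922 bases apart on chromosome 7 with no gene between them, and Tnnt1 fell while Tnni3 stayed at a trace.

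Other genes were ranked by how closely their log2 CPM, centred on the control mean, followed a troponin gene over the 8 mice, as a root mean square difference in log2 units. The fast genes lay close to one another, at 0.0441 for Tnni2 and Tnnt3, 0.0443 for Tnnc2 and Tnni2, and 0.0538 for Tnnc2 and Tnnt3. The slow genes were further apart, at 0.163 for Tnnc1 and Tnnt1 and 0.383 for Tnnc1 and Tnni1. Outside troponin the nearest to Tnnc2 were Ndufa5 (0.0242) and Ndufb10 (0.042), both of respiratory complex I, and Cycs (0.0459), cytochrome c. Ndufa5 and Cycs were also the nearest to Tnni2 (0.0398 and 0.0431), followed by Dld (0.0541), and to Tnnt3 (0.0434 and 0.0731), followed by Ndufb10 (0.0758). Nothing was particular to those genes, since 846 genes lay within 0.2 of Tnnc2, 718 of Tnni2 and 666 of Tnnt3.

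For the slow genes, the nearest to Tnnc1 were Myl2 (0.0647), the slow regulatory light chain of myosin, Sgf29 (0.0783) and Ndufa12 (0.0836), out of 530 genes within 0.2. Tnnt1 was nearest to Tmem126a (0.0574), Rnf114 (0.0594) and Myh7 (0.0667), the slow myosin heavy chain, out of 1515. Around Tnni1 stood Mad1l1 (0.0723), Rnft1 (0.0778) and Orai3 (0.0889), out of 1916. Tnnt2 had only 2 genes within 0.2, Chrnd (0.177), the delta subunit of the acetylcholine receptor, and Gsdme (0.198), and the next was Ak4 (0.209). The measure includes the size of the fold change, and that of Tnnt2 (2.44) lay beyond the 95th percentile of all tested genes (1.217). Few genes likewise lay near Tnni3, led by Aox1 (0.112), Fzd4 (0.134) and Slc22a5 (0.145), out of 28. Tnni3 had only 11 to 28 counts a mouse, so its own values are noisy.

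The rest of the thin filament, with which troponin works, held more genes that fell than rose. Of 21 genes of the thin filament and its assembly, 12 fell and 4 rose, with 4 called lower and 3 called higher, and their median log2 fold change was -0.30 beside 0.0074 over all tested genes. Over all tested genes 21.7% fell and 22.2% rose, with 7.85% called lower and 12.9% called higher, so the share of this list that rose was near the background. Tpm2, the beta tropomyosin, fell by 0.61 (SE 0.0873), Tmod4, a cap of the filament's pointed end, fell by 1.29 (SE 0.0607), and Kbtbd13, a Kelch protein of muscle, fell by 1.36 (SE 0.163). In the other direction Xirp2, an actin-binding repeat protein, rose by 0.96 (SE 0.0782), Tmod1, another pointed-end cap, by 0.63 (SE 0.0888) and Klhl40, a stabiliser of thin filament proteins, by 0.80 (SE 0.132).

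Of 10 other genes of slow fibres, 7 fell, beside 21.7% of all tested genes, and 3 were called lower, beside 7.85%. The 2 that rose, both called, were a share near the 22.2% of all tested genes that rose. The list had a median log2 fold change of -0.53. Myl3, the slow essential light chain, fell by 2.12 (SE 0.18), while Myoz2 fell by 0.68 (SE 0.075) and Myl2 by 0.64 (SE 0.117). The exceptions were Myl6b, a light chain of slow and non-muscle myosin, which rose by 1.40 (SE 0.108), and Pln, an inhibitor of the slow calcium pump, which rose by 0.83 (SE 0.17).

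Of 12 other fast fibre genes 9 fell, beside 21.7% of all tested genes, 7 were called lower, beside 7.85%, and the median log2 fold change was -0.90. Mybpc2, the fast myosin-binding protein C, fell by 3.36 (SE 0.317), Myoz1 by 1.56 (SE 0.0975) and Atp2a1, the fast calcium pump, by 1.19 (SE 0.0707), beside -0.69 to -0.70 for the 3 fast troponins. These are the genes of smallest p in the list. Myh1, Mylpf and Myl1 did not pass the test, with log2 fold changes of -0.13, -0.07 and -0.20, smaller in size than those of the fast troponins. The type IIB myosin gene Myh4 varied most among controls of these genes, at 426, 372, 163 and 3133 CPM in controls and 34.9, 34.0, 45.9 and 50.9 in mutants. Control mouse 4 stood far above the rest, and its fast troponins were the lowest or next to lowest of the controls. Without that mouse the log2 fold changes of Tnnc2, Tnni2 and Tnnt3 were -0.71, -0.72 and -0.70. The other controls also lay above every mutant in Myh4. The part of type IIB fibres in the fall of the fast troponins was not tested.

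The genes of cardiac and developing muscle included further rises. Of 12 listed, 9 could be tested, 5 rose, beside 22.2% of all tested genes, and 1 fell. Of the 9, 4 were called higher, beside 12.9%, with a median log2 fold change of 0.51. Nppb, counted among those that rose and were called, passed the filter on low counts through the mutants alone. With at least 10 counts asked of every mouse, which leaves Nppb out, 3 genes of the list were called higher, beside 1623 of all 13091 genes then tested. Myl4, the atrial and embryonic light chain, rose by 4.84 (SE 0.159), Ankrd1, a stress-induced ankyrin protein, by 4.52 (SE 0.163) and Myh3, the embryonic myosin heavy chain, by 3.84 (SE 0.135). Nppb, the B-type natriuretic peptide, was at 0 counts in every control and at 20, 19, 14 and 21 counts in mutants, at least 22.7-fold higher against a floor of 3 counts over the control group. Myl7, Mybpc3 and Nppa had too few counts to test, with at most 6 in any mouse.

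**Figure D4:**
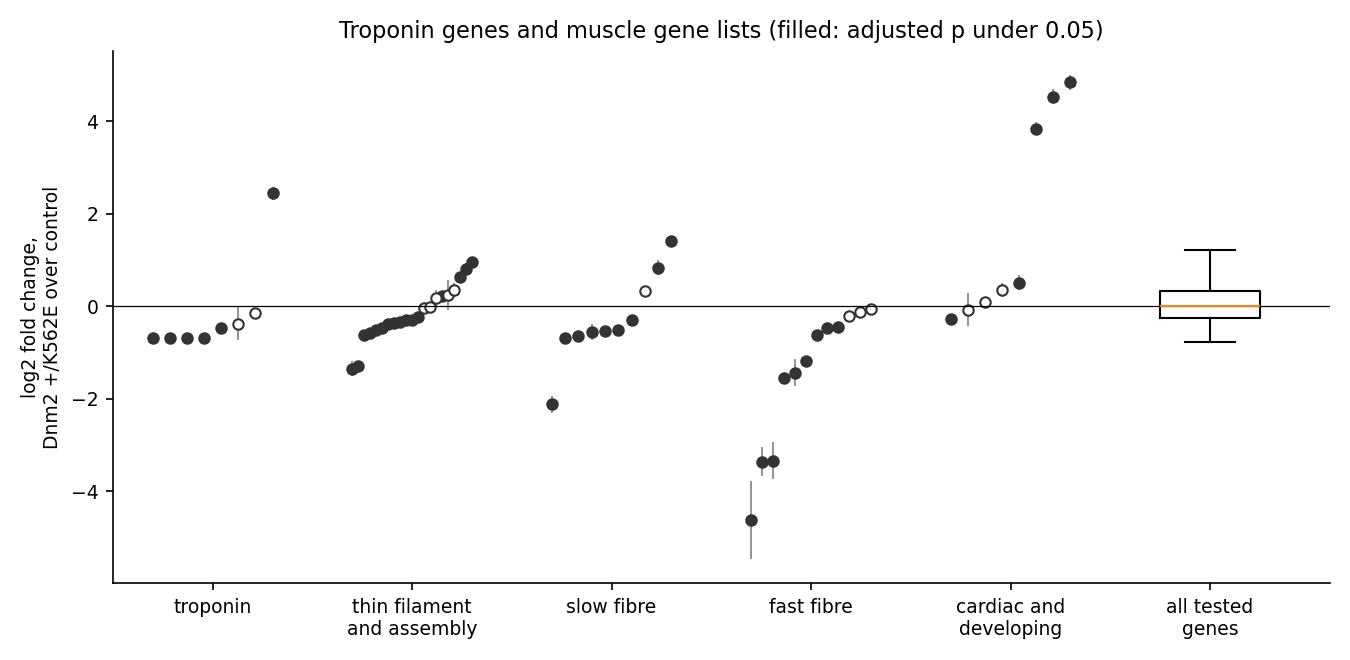
Log2 fold changes of Dnm2 +/K562E over control are drawn as points with SE bars for the troponin genes and the muscle gene lists, filled where the adjusted p was under 0.05 (Nppb, at 0 in the controls, is left out), beside a box of all 14001 tested genes (median line, quartiles, whiskers at the 5th and 95th percentiles). The lowest 4 troponin genes lie between -0.70 and -0.69, inside the whiskers, which end at -0.78 and 1.217, and Tnnt2 lies above them at 2.44.

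Some markers of other cells and states also differed between the genotypes. The 7 markers of activated satellite cells and new fibres summed to between 62.4 and 77.4 CPM in controls and between 353 and 514 in mutants. Most of the mutant sums was Myh3 alone, at 271 to 403 CPM. Of the 7, 2 were called higher (Myog and Myh3) and 1 was called lower (Pax7), while Myod1, Mymk, Mymx and Myh8 did not pass the test. Myog, the myogenin gene, measured 6.91, 4.39, 6.96 and 7.74 CPM in controls and 67.1, 46.6, 47.9 and 61.5 in mutants. It was highest in mutant mice 1 and 4, as Tnnt2 was, and so were Myh3, Myl4 and Ankrd1. The part of new fibres in the rise of Tnnt2 was not tested.

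Most defining genes of heart muscle were at or near 0. Of 7 markers, Nkx2-5 was at 0 in every mouse, Gata4 at 0 counts in controls and at most 3 in mutants, Tbx5, Myl7, Nppa and Tbx20 at no more than 16 in any mouse, and only Myh6 had enough counts to test. Myh6 fell from 58.0 ± 2.17 to 48.0 ± 5.35 CPM (SD, n = 4 each, adjusted p = 0.0176, edgeR's quasi-likelihood test), and the summed markers lay between 56.1 and 60.1 CPM in controls and between 42.9 and 55.8 in mutants.

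The slow soleus fibre markers Myh7, Myl2, Myl3 and Atp2a2 summed to between 15190 and 17760 CPM in controls. In mutants they summed to between 8346 and 10450, all 4 falling. Myh4, marking type IIB fibres, which the soleus largely lacks, lay between 163 and 3133 CPM in controls and between 34.0 and 50.9 in mutants. Whether the samples held parts of other muscles was not tested. All 4 macrophage markers rose (summed 44.7 to 80.6 CPM in controls, 96.8 to 167 in mutants), as did all 3 tendon markers (70.1 to 111, then 200 to 251). All 5 smooth muscle markers fell (437 to 566 CPM, then 302 to 323), 1 of 3 Schwann cell markers fell (151 to 170, then 125 to 156), and the 3 adipocyte markers did not pass the test (19.6 to 116, then 32.1 to 64.4). Their part in the fall of the troponin genes was not tested. Total counts ranged from 33407430 to 48832814 a mouse, and Dnm2 itself, whose alleles the counts do not separate, stood at 66.3 ± 4.74 CPM in controls and 73.4 ± 2.43 in mutants (SD, n = 4 each, adjusted p = 0.091, edgeR's quasi-likelihood test).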

How the data were processed

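RNA-seq libraries of 8 soleus muscles, 4 per genotype, were analysed. The authors trimmed reads with Trimmomatic 0.33, aligned them to GRCm38.p5 with STAR 2.5.1b and counted them per gene with featureCounts; they deposited these raw counts, 1 file per mouse, without normalization. Reads overlapping several genes were counted for each and multi-mapping reads at their primary alignment. Whether strand was used is not given in the sources used here, and the labels name a stranded total RNA kit where the paper describes poly A selection. The authors' own test was run with edgeR 3.14.0.

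Here, edgeR 4.0.16 in R 4.3.3 supplied the low-count filter (filterByExpr, 10 counts, 15 in total), which kept 14001 genes, the TMM factors and the quasi-likelihood F-test, adjusted by Benjamini-Hochberg. Each SE follows from its F statistic. CPM were normalized by effective library size, with 2 as the prior count of log2 values. GENCODE M21, matched by 22570 of 22880 identifiers, gave positions and lengths. Exact two-sided permutation tests used scipy 1.17.1. Fitting was tested on simulated data. Shared exon bases and shared 31-base stretches between genes were listed.

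The troponin genes and the gene lists were chosen with earlier results of these data known. Named besides the 8 were Dnm2, genes overlapping a member, called and untested members of each list, and the 3 genes most like each member. With over 6 called, the 3 of smallest p in each direction were named, and for fast fibres also the genes that did not pass. Lad1, Lsp1 and Tnni3k were chosen after their values were seen. Mouse numbers in titles and descriptions did not pair the mice (mean correlation of deviations -0.11 and -0.03). Alternatives were library size alone, median-ratio factors, edgeR's exact test, DESeq2 1.42.0, a minimum of 10 counts per mouse, no filter, no fold threshold, 2 replicate blocks, 3 other length scalings and leaving out each mouse.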

Additional observations from a re-analysis of the deposited data

Results flagged for a closer look

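Of 56 sets of 4 mice, 5 held a mouse far from the other 3 by Dixon's criterion, where chance gives about 5% of sets. Tnnt3 stood at 5406 CPM in Dnm2 +/K562E mouse 4, above the other mutants. The fast share of troponin C was 73.0% in control mouse 3, and its log2 ratio of fast to slow troponin C was 1.43, both below the other controls. The cardiac share of troponin T was 0.191% in Dnm2 +/K562E mouse 1, and its log2 ratio of cardiac to fast troponin T was -8.75, both above the other mutants. In each of the last 2 pairs, both values come from the same counts.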

How the results depend on the processing

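Each fit and share was recomputed under the alternatives. Shares and ratios that passed no test moved in size as single mice were left out. The small differences in troponin C and in cardiac to slow troponin I then also changed sign. So did those in the ratios of troponin C to troponin T and of troponin I to troponin T. Scaling by library size alone raised the genes called higher from 1806 to 2865 and lowered those called lower from 1099 to 564. Under it 0 troponin genes were called lower in place of 4, and the log2 fold change of Tnni1 turned from -0.15 to 0.059 (adjusted p = 0.684, edgeR's quasi-likelihood test), since that scaling moved the median of all genes to 0.22. It also left 2 thin filament genes and 1 slow fibre gene called lower. Without a fold threshold 3103 genes were higher and 3036 lower, with 12 thin filament genes, 7 slow fibre genes and 1 cardiac gene lower. Leaving out each mouse gave 1588 to 1970 genes called higher and 1026 to 1209 called lower, always with 1 troponin gene called higher and 4 lower; without Dnm2 +/K562E mouse 1, 2 thin filament genes were called lower in place of 4. Leave-one-out shares of 3 against 4 mice carry no test.

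The replicate block changed no troponin call, with 1637 genes called higher and 1036 lower for the numbers in the titles and 1739 and 1083 for those in the descriptions. The numbers did not pair the mice.

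Tnni3 rests on at most 28 counts a mouse. The length used moves the size of the isoform shares, the order of the 3 fast genes and, in mutants, that of Tnni1 and Tnnt1.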

Other observations

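Tnni3k, the gene of a kinase that binds cardiac troponin I, was looked at after its values were seen. It had 3, 0, 0 and 2 counts in controls and 24, 38, 38 and 43 in mutants. It passed the filter on low counts through the mutants alone and was picked for these values, so no test is given. Tnni3 had between 11 and 28 counts in all 8 mice. Dnaaf3, which shares exon bases with Tnni3, had 13, 4, 8 and 11 counts in controls and 16, 26, 26 and 21 in mutants. Every mutant but not every control reached the 10 counts of the filter on low counts, so no test of Dnaaf3 is given.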
